A study of Mus musculus with 14 samples.

Results

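The genes described here are 10 immediate early genes (Fos, Fosb, Jun, Junb, Egr1, Egr2, Ier2, Atf3, Klf6 and Nr4a1), chosen by name and followed through RNA sequencing (RNA-seq) libraries of granule neuron progenitors (GNPs). They are 10 of the 41381 genes in the deposited table, and all 10 were among the 17325 genes that reached a TPM of 1 in 4 or more libraries and were tested. TPM is the share of a gene among all transcripts of a library, corrected for gene length and scaled to a fixed total. GNPs are the dividing cells of the cerebellar external granule layer, and here they were purified on a Percoll gradient from postnatal day 7 mice and used without culture. The 5 WT libraries are from animals whose Chd7 is floxed but that carry no Cre, the 5 Het libraries from Atoh1-Cre::Chd7 f/+ mice and the 4 Hom libraries from Atoh1-Cre::Chd7 f/f mice, as the study and, for the later libraries, the labels give it. Chd7 encodes a chromatin remodeller. Atoh1-Cre acts in the granule cell lineage, so other cells in a preparation keep Chd7 whatever the label, and the WT mice lack the Cre transgene that the other groups carry. Sequencing was done in separate batches. The 8 libraries of batch 1 were replicates 1 to 3 of WT, 1 to 3 of Het, and 1 and 2 of Hom. The other 6 libraries, replicates 4 and 5 of WT, 4 and 5 of Het, and 3 and 4 of Hom, formed batch 2. The strain is labelled C56Bl6/J for the batch 1 libraries other than Het 3, and C57BL/6 for Het 3 and all of batch 2, so strain label and batch can hardly be told apart. Het 3, labelled like the batch 2 libraries, was kept in batch 1, where the methods place it. Counting it in batch 2, an alternative added after the data were seen, gave the same 0 members called in Hom or Het against WT, with 7 and 4 lower at an unadjusted p under 0.05 in limma, where 5.9% and 2.51% of all tested genes were. Pups of either sex were taken, and how many animals stand behind a library is not given in the sources used here.

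Immediate early genes are transcribed within minutes of a stimulus and need no new protein synthesis for it. Calcium entry at active synapses, growth factors and the stress of handling all reach them through kinases that act on the factors CREB and SRF already bound at their promoters. Their mRNAs are short-lived, and most of their products are transcription factors that act on a later wave of genes. In neurons they are widely read as marks of recent activity, and in dissociated tissue also as marks of the isolation itself.

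Promoter sequence shows the sites through which such genes are commonly switched on, so it is given before the values. RefSeq windows on GRCm38.p6, running from 250 bases before to 50 bases after a transcription start, were at hand for 8 members (all but Egr1 and Ier2). The motif TGACG, the short form of the cAMP response element that CREB binds, was present on either strand in 6 of these 8 members and in 23% of all 27025 genes with a window. The CArG box of SRF was in 1 of the 8 (Egr2), against 1.81% of all genes. The Egr site GCGNGGGCG was in 2 of 8 (Fosb and Nr4a1), against 6.27%. The letters TATAAA of the TATA box were in 2 of 8 (Fos and Junb), against 15.7%. In Fos they lay at bases -33 to -28 from the start. In Junb they lay on the start itself, at bases 0 to 5, outside the bases printed below. The full cAMP response element TGACGTCA, which contains the short form, was in none of the 8 and in 2.03% of all genes, and the AP-1 site TGANTCA was in none of the 8 and in 8.97%. These are matches of letters in windows at annotated starts, and Jun and Klf6 held none of them there. Egr2 has more than 1 window, and these were read together. The windows of Atf3 and Nr4a1 lie inside the span of the gene, downstream of its outermost start.

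The 150 bases upstream of the start are shown for the 6 members with the short cAMP response element, read 5′ to 3′ on the strand of the gene. Capitals mark that element, the CArG box, the Egr site and the TATA box, on either strand. Fos lies at chr12:85473740-85473889, plus strand, Fosb at chr7:19310046-19310195, minus strand, and Junb at chr8:84978749-84978898, minus strand. Egr2 is shown for 1 of its 5 annotated starts, at chr10:67537719-67537868, plus strand, where the CArG box stands between 2 copies of the short cAMP response element. Atf3 lies at chr1:191183334-191183483, minus strand, and Nr4a1 at chr15:101266696-101266845, plus strand.
Fos: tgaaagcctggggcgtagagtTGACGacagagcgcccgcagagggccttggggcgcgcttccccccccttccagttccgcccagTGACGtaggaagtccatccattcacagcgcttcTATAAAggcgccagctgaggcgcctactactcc
Fosb: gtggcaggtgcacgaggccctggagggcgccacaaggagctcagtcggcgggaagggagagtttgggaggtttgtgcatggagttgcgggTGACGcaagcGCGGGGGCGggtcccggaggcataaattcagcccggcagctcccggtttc
Junb: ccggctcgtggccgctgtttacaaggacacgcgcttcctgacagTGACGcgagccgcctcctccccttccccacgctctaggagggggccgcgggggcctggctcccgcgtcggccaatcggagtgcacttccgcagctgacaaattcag
Egr2: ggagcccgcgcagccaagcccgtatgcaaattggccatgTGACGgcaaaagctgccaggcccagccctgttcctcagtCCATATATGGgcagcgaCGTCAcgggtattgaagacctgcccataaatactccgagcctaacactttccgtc
Atf3: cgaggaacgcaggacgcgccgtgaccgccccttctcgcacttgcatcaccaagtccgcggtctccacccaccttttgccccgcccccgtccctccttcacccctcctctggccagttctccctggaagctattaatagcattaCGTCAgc
Nr4a1: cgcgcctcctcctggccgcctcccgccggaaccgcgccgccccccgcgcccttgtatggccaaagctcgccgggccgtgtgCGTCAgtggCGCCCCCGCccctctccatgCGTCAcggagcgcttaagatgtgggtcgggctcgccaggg

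The libraries were alike in the number of genes with at least 1 TPM (15863 to 16734) and in the share of mitochondrial transcripts (4.93% to 6.56%), and no columns of the table were identical. TPM keeps no depth, so the depth of each library is unknown. Chd7 itself averaged 158 ± 26.3 TPM in Hom (SD, n = 4) and 176 ± 62.3 TPM in WT (SD, n = 5), a log2 change of -0.11 that was under its error (SE 0.20, limma adjusted p 0.862), so it does not check the labels. Without WT 5, which had 272.06 TPM of Chd7, the WT mean was 152 ± 36.4 TPM (SD, n = 4) and the Hom change 0.09 (SE 0.16, limma adjusted p 0.872). The batches differed in direction for Chd7. Fitted in batch 1 alone, it was higher by 0.41 in Hom (SE 0.11) and by 0.30 in Het (SE 0.10). Batch 2 alone gave -0.77 for Hom and -0.71 for Het, each with an SE of 0.16. Leaving WT 5 out of batch 2 gave -0.56 and -0.50. With all libraries of a batch, the limma adjusted p ranged from 0.164 to 0.809. By qRT-PCR, the study reports fewer Chd7 transcripts in Het and Hom GNPs than in WT. Defining markers of granule neurons were present in every library, with a summed TPM of 3733 to 5617 over 13 genes. Markers of other cell types were present too, and none of the lists was at 0. A lower marker sum in bulk RNA can come from fewer cells of a type or from less RNA per cell, which cannot be told apart. WT 5, a batch 2 library, stood apart from all others in the 10 members, and results that rest on it are given with and without it.

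The Fos family supplies the partners that pair with Jun proteins to form the AP-1 transcription factor. Fos (chromosome 12, 85473890 to 85477273, plus strand, 4 exons; positions on GRCm38) measured 157.25, 164.77, 186.03, 55.35 and 666.36 TPM across WT 1 to 5. The Het libraries, in order, had 40.62, 64.07, 136.81, 93.28 and 56.03 TPM, and the Hom libraries 35.63, 66.66, 46.33 and 60.22 TPM. WT 5 was 3.58-fold above the next library, WT 1 to 3 lay above every Het and Hom library, and WT 4 lay inside the range of both mutant groups. Fosb (chromosome 7, 19302696 to 19310051, minus strand, 4 exons) gives a closely related protein and had the highest ratio between its highest and lowest WT library among the members (43.2-fold). Its TPM was 33.64, 29.31, 42.31, 5.26 and 227.34 across WT 1 to 5, then 2.28, 6.64, 21.24, 12.32 and 2.74 across Het 1 to 5, followed by 1.75, 5.46, 6.75 and 3.08 across Hom 1 to 4. The order was that of Fos at the top, with WT 5 first, WT 1 to 3 next and Het 3 after them, and WT 4 again among the mutant libraries.

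Jun and Junb are the Jun-type partners in AP-1, Jun a strong activator and Junb a weaker one. Jun (chromosome 4, 95049034 to 95052222, minus strand, 1 exon) reached 186.54, 204.67, 205.73, 106.6 and 459.61 TPM across WT 1 to 5. The Het values were 139.16, 111.69, 146.7, 129.64 and 124.44, and the Hom values 156.07, 92.8, 121.27 and 107.73. WT 1 to 3 lay above all mutant libraries, and WT 4 was lower than all libraries except Hom 2. Junb (chromosome 8, 84974484 to 84978718, minus strand, 1 exon in its longest transcript) had 19.03, 20.48, 18.61, 13.69 and 65.51 TPM in WT 1 to 5. The Het libraries had 8.01, 13.96, 12.03, 20.08 and 18.09 TPM, while the Hom libraries had 7.37, 12, 11.38 and 17.53 TPM. Within each mutant group its batch 2 libraries were mostly the higher ones. Jun overlaps the opposite-strand gene Junos (at most 4.05 TPM) and Junb overlaps the opposite-strand gene Prdx2 (at most 696.87 TPM), and whether counting used strand is not given in the sources used here, so reads of these pairs may not be told apart.

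Egr1 and Egr2 are zinc finger transcription factors, Egr1 a general marker of neuronal activity and Egr2 best known from hindbrain patterning and Schwann cells. Egr1 (chromosome 18, 34859823 to 34864984, plus strand, 2 exons) stood at 98.25, 112.1, 118.27, 33.85 and 286.3 TPM across WT 1 to 5. Its Het levels were 30.99, 41.34, 134.6, 58.04 and 61.52 TPM, and its Hom levels 27.66, 43.95, 30.39 and 64.76 TPM, each in library order. Here Het 3 was the next library after WT 5, above WT 1 to 3, so the WT and Het groups overlapped in batch 1 as well. Egr2 (chromosome 10, 67535475 to 67542188, plus strand, 2 exons in its longest transcript) was lower, with 9.72, 8.75, 10.27, 4.78 and 37.05 TPM in WT 1 to 5. Its TPM was 7, 7.15, 8.52, 6.22 and 5.79 across Het 1 to 5 and 6.96, 4.99, 4.95 and 5.17 across Hom 1 to 4. WT 4 was the lowest of all 14 libraries for Egr2, and WT 5 the highest.

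Ier2 encodes a small nuclear regulator, and Klf6 a Krüppel-like zinc finger factor. Ier2 (chromosome 8, 84661331 to 84662852, minus strand, 1 exon) had 68.05, 65.15, 73.5, 46.18 and 185.96 TPM in WT 1 to 5. Its TPM was 41.04, 60, 74.9, 59.6 and 49.17 across Het 1 to 5 and 46.33, 49.55, 41.42 and 47.31 across Hom 1 to 4, so that every Hom library lay below WT 1 to 3 and around WT 4. Klf6 (chromosome 13, 5861482 to 5870394, plus strand, 4 exons) had 25.72, 27.48, 32.34, 20.12 and 123.83 TPM in WT 1 to 5. Het 1 to 5 gave 25.65, 21.29, 24.47, 21.5 and 31.65 TPM, while Hom 1 to 4 gave 22.85, 23.12, 19.03 and 32.85 TPM. WT 1 to 3 lay above the mutant libraries of batch 1 for Klf6, narrowly so for Het 1, while in batch 2 Het 5 and Hom 4 lay above WT 4 and Hom 4 was the next library after WT 5.

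Atf3 is a stress-induced member of the ATF/CREB family, and Nr4a1 an orphan nuclear receptor that is itself induced by activity. Atf3 (chromosome 1, 191170296 to 191218039, minus strand, 4 exons in its longest transcript) had 6.61, 5.55, 4.66, 2.38 and 96.78 TPM in WT 1 to 5. The Het libraries had 3.92, 4.1, 3.94, 5.26 and 8.29 TPM, and the Hom libraries 2.62, 5.27, 2.3 and 8.01 TPM. WT 5 was 11.7-fold above the next library, the widest gap among the 10 members, while WT 4 had the next-to-lowest value of all. Nr4a1 (chromosome 15, 101254269 to 101274795, plus strand, 8 exons in its longest transcript) had 7.44, 7.53, 6.28, 4.69 and 77.29 TPM in WT 1 to 5. Its TPM was 5.45, 7.05, 3.68, 5.42 and 23.69 across Het 1 to 5 and 4.39, 8.07, 7.14 and 26.48 across Hom 1 to 4. Het 5 and Hom 4 were, after WT 5, well above the remaining libraries, and they were also the next after WT 5 for Atf3. The 10 endothelium markers summed to 292 TPM in Het 5 and 357 TPM in Hom 4, and to 554 TPM in Het 2 and 415 TPM in Hom 2, where Nr4a1 was 7.05 and 8.07 TPM. The part of endothelial RNA in the Nr4a1 levels was not tested.

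**Figure D1:**
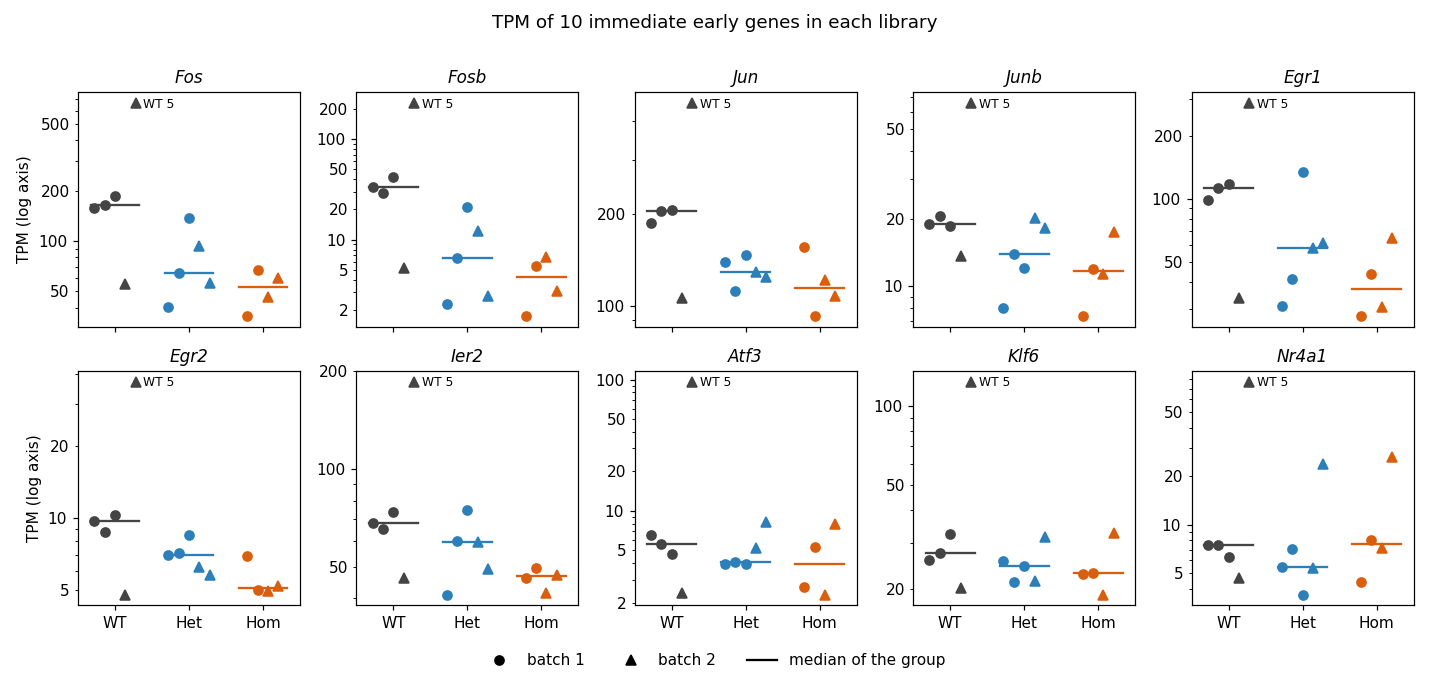
TPM of each of the 10 genes (vertical axis, log scale) in the 14 libraries, grouped by genotype label, with circles for batch 1, triangles for batch 2 and a line at each group's median. WT 5 is the highest point in every panel, WT 4 sits at or near the bottom in most panels, and Nr4a1 has further high points in Het 5 (23.69) and Hom 4 (26.48).

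WT 5 was the highest library for all 10 members, where 10.8% of the tested genes had their highest value in that library. It exceeded every other library by more than 2 times for all 10, which was the case for 0.427% of the tested genes. The ratio of WT 5 to the next library ran from 2.13 (Egr1) to 11.7 (Atf3), with a median of 3.39, and the members ranked between 2 and 67 among the 17325 tested genes on that ratio. WT 4 shares the genotype label, strain label and batch of WT 5, and its rank among the 14 libraries was between 9 and 14 for the members. The ratio of WT 5 to WT 4 was 12-fold for Fos, 43.2-fold for Fosb, 40.7-fold for Atf3, 16.5-fold for Nr4a1 and 8.46-fold for Egr1, and at its lowest 4.03-fold for Ier2. Summed over the 10 members, TPM was 2226 in WT 5, 612 to 698 in WT 1 to 3 and 293 in WT 4. The sum was 304 to 567 in the Het libraries and 291 to 373 in the Hom libraries.

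**Figure D2:**
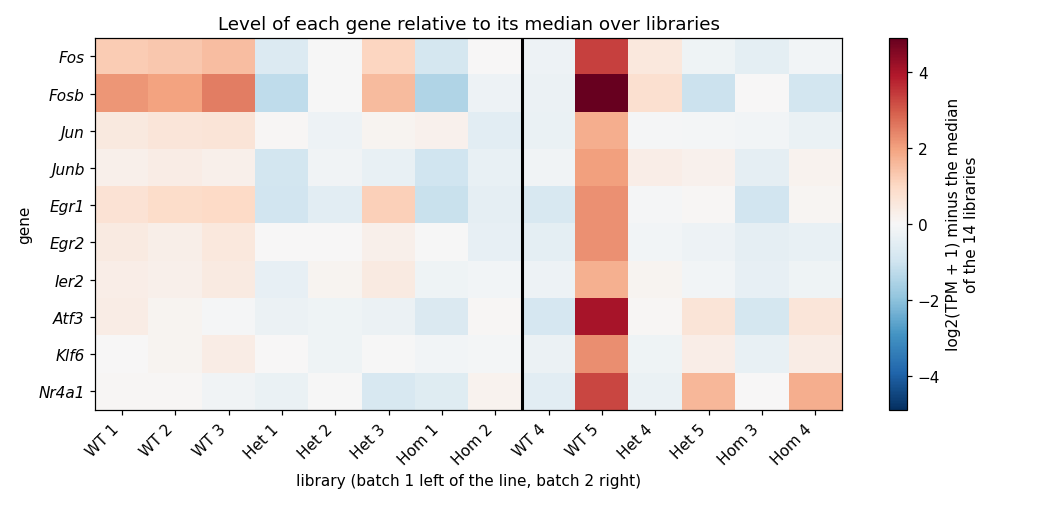
Level of each gene (rows) in each library (columns, batch 1 left of the line), as log2(TPM + 1) minus the gene's median over the 14 libraries. The WT 5 column is above the median for all 10 genes, by 1.76 (Ier2) to 4.89 (Fosb), and a paler band in WT 1 to 3 and Het 3 is strongest for Fos, Fosb and Egr1.

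Whether the members follow the Chd7 genotype was addressed by comparing the libraries labelled Hom and Het with those labelled WT, in a linear model (limma) on log2(TPM + 1) with genotype and batch as terms. The change of every member was below 0 in Hom and in Het, and none of the 10 passed an adjusted p of 0.05 in either comparison. In Hom the change was -1.80 on the log2 scale for Fos (SE 0.55, limma adjusted p 0.12), -2.91 for Fosb (SE 0.84, adjusted p 0.0992), -1.01 for Junb (SE 0.33, adjusted p 0.156) and -1.40 for Egr1 (SE 0.53, adjusted p 0.228). It was -0.82 for Jun, -0.90 for Egr2, -0.75 for Ier2, -1.03 for Atf3, -0.59 for Klf6 and -0.33 for Nr4a1 (adjusted p 0.217 to 0.868). At this threshold 2.68% of all tested genes were called in Hom against WT. At an unadjusted p under 0.05 in limma, 7 of the 10 members were lower in Hom, where 6.42% of all tested genes were. The median change of the members was -0.96, against 0.024 over all genes tested.

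In Het against WT the changes were smaller, -1.30 for Fos (SE 0.51, limma adjusted p 0.728) and -2.24 for Fosb (SE 0.79, adjusted p 0.648), with a median of -0.69 over the members and 0.0074 over all genes. The background of calls in this comparison was 0.00577%, a single gene. At an unadjusted p under 0.05, 4 of 10 members were lower (Fos, Fosb, Jun and Junb), where 2.88% of all genes were. Both comparisons share the WT libraries, WT 5 among them. Hom against Het sets no WT library against the mutants, and there 0 of 10 members were called, with 0 of 10 also at an unadjusted p under 0.05 in limma, a median change of -0.29 and a background of 0.427%. The change between the mutant groups was -0.50 for Fos (SE 0.55) and -0.68 for Fosb (SE 0.84), smaller than its error, and only Nr4a1 had a change above 0 (0.19, SE 0.63). These errors are estimated over all libraries, WT 5 included. Fitted on the Het and Hom libraries alone, the changes were -0.49 for Fos (SE 0.34, limma adjusted p 0.998) and -0.68 for Fosb (SE 0.60, adjusted p 0.998).

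These comparisons turned on the batch 2 WT libraries, which held the highest and some of the lowest levels. Without WT 5 the Hom change was -1.23 for Fos (SE 0.41, limma adjusted p 0.17), -2.10 for Fosb (SE 0.69, adjusted p 0.163), -0.46 for Jun, -0.67 for Junb and -0.97 for Egr1. It was -0.39 for Egr2, -0.38 for Ier2, -0.14 for Atf3, -0.11 for Klf6 and 0.30 for Nr4a1. The median change of the members came to -0.43 in Hom and -0.25 in Het. At an unadjusted p under 0.05, 6 of 10 members were lower in Hom without WT 5 (Fos, Fosb, Jun, Junb, Egr2 and Ier2), against 6.41% of all genes, and 1 of 10 was lower in Het (Fosb), against 3.23%. Without WT 4 all 10 members were again below 0 in Hom, and 5 of 10 were called lower, where 2.23% of all genes were called. These were Fos (-2.35, SE 0.43, limma adjusted p 0.0138), Fosb (-3.73, SE 0.69, adjusted p 0.0138), Jun (-1.12, adjusted p 0.0302), Junb (-1.35, adjusted p 0.0137) and Egr1 (-1.92, adjusted p 0.0348). The median over the members was then -1.30 in Hom and -1.03 in Het, and no member was called in Het. With array weights, which count a library that departs from the rest for less, 3 members were called lower in Hom (Fos, Fosb and Junb), against 3.43% of all genes called.

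**Figure D3:**
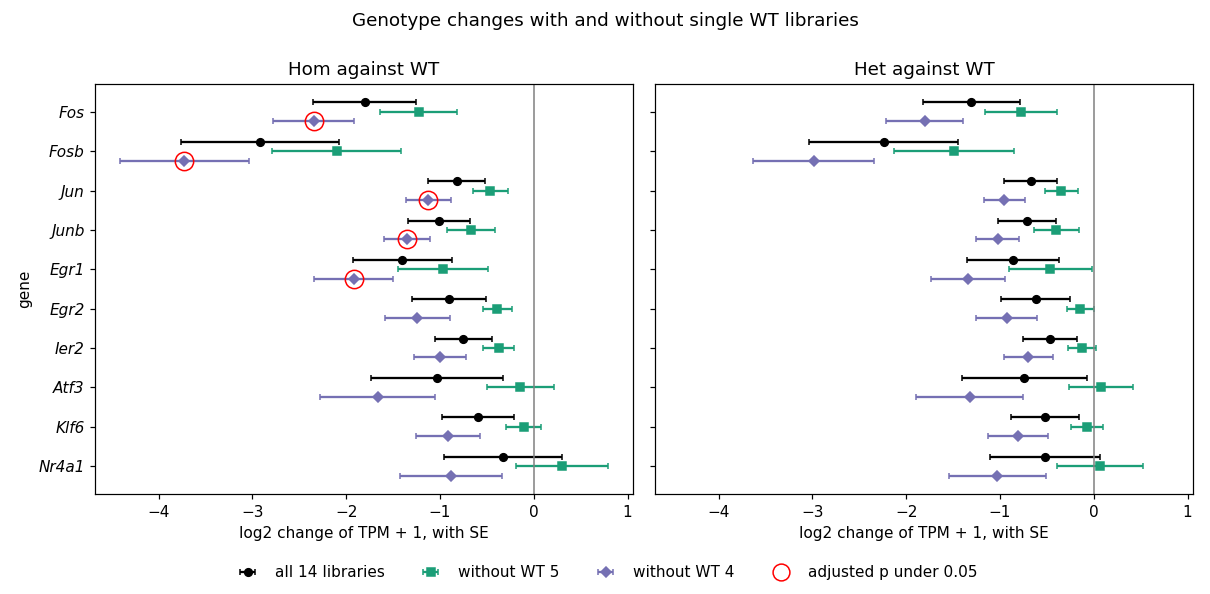
Change of log2(TPM + 1) in Hom (left) and Het (right) against WT for each gene, with the limma SE, using all 14 libraries (black), without WT 5 (green) and without WT 4 (purple). Red rings mark an adjusted p under 0.05, which 5 genes reach in Hom, and only without WT 4, while without WT 5 the points of Atf3, Klf6 and Nr4a1 lie near 0.

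Within batch 1, where the WT libraries were close to each other, every Hom library lay below every WT library for 8 of 10 members (all but Atf3 and Nr4a1), which held for 15.3% of the tested genes. Every Het library lay below every WT library for 7 of 10 (Fos, Fosb, Jun, Junb, Egr2, Atf3 and Klf6), against 6.74%. Fitted in batch 1 alone, the Hom change was -1.77 for Fos (SE 0.46, limma adjusted p 0.146), -3.08 for Fosb (SE 0.72, adjusted p 0.115), -0.96 for Junb (SE 0.25), -0.72 for Jun (SE 0.21) and -1.62 for Egr1 (SE 0.54), with no member called, where 0.935% of all genes were, and 8 lower at an unadjusted p under 0.05 in limma, where 7.2% were. The 10 endothelium markers summed to 37.7 to 50.1 TPM in WT 1 to 3 and to 133 and 415 TPM in Hom 1 and 2, and the 10 astroglia markers to 1227 to 1917 TPM and 582 to 583 TPM. The 10 Purkinje cell markers summed to 193 to 249 TPM in WT 1 to 3, 98.9 to 133 TPM in Het 1 to 3 and 92.1 and 149 TPM in Hom 1 and 2. The part of these cell types in the changes was not tested. Het 3 had the lowest endothelium marker sum of all libraries (26.1 TPM), and its astroglia markers summed to 1210 TPM. Of the Het libraries it was the one nearest to WT 1 to 3 in Fos, Fosb and Egr1 but not in Junb, and for Nr4a1 it was the lowest of all libraries.

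Within batch 2 no member had every Hom library below every WT library, where 21.9% of the tested genes did, and over all libraries again no member did, against 1.96%. Batch 2 alone gave a Hom change of -1.85 for Fos (SE 1.05, limma adjusted p 0.424) and -2.75 for Fosb (SE 1.61, adjusted p 0.434), with WT 5 and WT 4 at the extremes. Leaving WT 5 out of batch 2, an alternative added after the data were seen, left WT 4 as the only WT library there, assumed to vary like the others. The Hom change was then -0.07 for Fos (SE 0.34) and 0.38 for Egr1 (SE 0.44), and the Het change was above 0 for all 10 members. The difference of the Hom change between batches was called for 0 of 10 members (limma adjusted p 0.691 to 0.983, background 0.0115%), and likewise that of the Het change (adjusted p 0.776 to 0.975, background 0.00577%), with 0 members at an unadjusted p under 0.05 in either. The median of that difference turned from -0.26 to 1.08 in Hom and from -0.34 to 1.36 in Het when WT 5 was left out, with no member called. At an unadjusted p under 0.05 in limma, the difference was then above 0 for 6 of 10 members in Hom, against 8.12% of all genes, and for 5 of 10 in Het, against 3.05%.

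Between the batches themselves no member was called by limma, where 13.5% of all tested genes were, and 2 of 10 were higher in batch 2 at an unadjusted p under 0.05, near the 16.4% of all genes that were. These were Junb (0.64 higher in batch 2, SE 0.27, limma adjusted p 0.133) and Nr4a1 (1.17 higher, SE 0.51, adjusted p 0.145). Fos (0.11, SE 0.44), Jun (0.02, SE 0.24) and Egr2 (0.02, SE 0.32) had changes well under their errors. Without WT 4, Junb (0.91, adjusted p 0.0195) and Nr4a1 (1.62, adjusted p 0.0449) were called, against 8.01% of all genes. Without WT 5 the change was 0.36 for Junb and 0.66 for Nr4a1, neither called, and -0.40 for Egr2 (SE 0.12, limma adjusted p 0.0567). Array weights called Junb alone, against 15.5% of all genes.

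The study names a Kruskal-Wallis test for its 3 genotypes. Computed exactly for each member over all 252252 arrangements of the libraries, after removal of the batch term, it gave an unadjusted exact p of 0.0323 for Junb, 0.0432 for Fosb, 0.0612 for Fos and 0.0829 for Egr2. The exact p was between 0.118 and 0.215 for Jun, Egr1, Klf6, Ier2 and Atf3, and 0.79 for Nr4a1. No member reached 0.01, and no adjustment over the 10 tests was made.

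How much the members varied between libraries beyond the genotype and batch terms was measured as the residual SD of the fit. It was set beside the 500 tested genes nearest in mean level. The fit has no term for a genotype change that differs between batches, so any such difference is part of this SD. The residual SD of log2(TPM + 1) was 1.43 for Fosb, 1.2 for Atf3, 1.06 for Nr4a1, 0.93 for Fos and 0.90 for Egr1, and between 0.51 and 0.65 for Jun, Junb, Egr2, Ier2 and Klf6. The median of the neighbouring genes was 0.12 to 0.27. Each member stood at the 93.4th percentile of its neighbours or above, and Fos at the 99.6th. Without WT 5 Egr2 dropped to the 27.8th percentile with a residual SD of 0.20, and the other 9 lay between 84.6 and 99.6. Fos (0.65), Fosb (1.09), Egr1 (0.76) and Nr4a1 (0.78) kept the larger residual SDs of the members without that library.

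**Figure D4:**
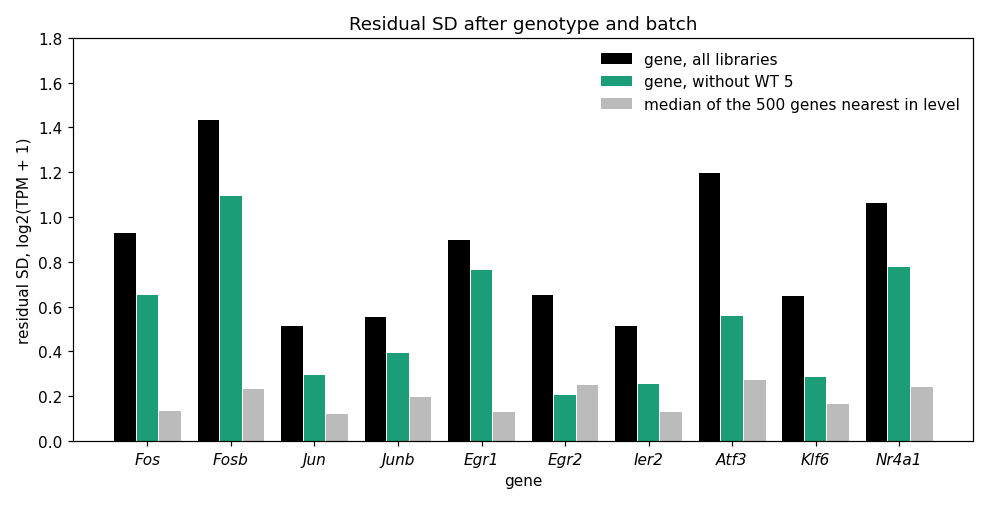
Residual SD of log2(TPM + 1) after genotype and batch (vertical axis) for each gene with all libraries (black) and without WT 5 (green), beside the median of the 500 genes nearest in level (grey). All black bars exceed the grey ones, and only for Egr2 is the green bar (0.20) lower than the grey (0.25).

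The other immediate early genes, from lists of 18 transcription factors, 24 effectors and 28 upstream regulators, were read in the same way. WT 5 was the highest library for 16 of the 18 other transcription factors and for 18 of the 24 effectors, but for 5 of the 28 upstream regulators and 3 of 14 heat shock genes. Npas4, a factor induced by calcium entry and used as a mark of neuronal depolarisation, had 68.52 TPM in WT 5 and between 0.55 and 3.71 TPM elsewhere. Egr3 and Egr4, relatives of Egr1 named here after their values were seen, had 16.35 and 5.63 TPM in WT 5 and at most 1.12 and 0.53 TPM elsewhere. Among the upstream regulators Srf, the factor of the CArG box, had 158.1 TPM in WT 5 and 27.71 to 38.12 TPM in the other libraries. The mean-level ratio of WT 5 to WT 1 to 4, on TPM + 1, had a median of 4.3 over the members, 3.36 over the other transcription factors, 2.07 over the effectors and 1.11 over the heat shock genes.

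In Hom against WT, 1 of the 16 tested transcription factors was called and 1 of the 22 tested effectors, both lower, with 0 of 27 upstream regulators and 0 of 14 heat shock genes. Of all tested genes, 2.68% were called in either direction. Jund, the Jun relative with steady expression, was lower by a change of -0.67 (SE 0.16, limma adjusted p 0.0371), with 98.1, 88.29, 92.43, 121.75 and 216.5 TPM in WT 1 to 5 and 67.49, 60.59, 97.15 and 81.57 TPM in Hom 1 to 4. Without WT 5 its change was -0.49 (adjusted p 0.0282), but 8 of the 14 fits with 1 library left out no longer called it (WT 1, 2 or 3, Het 4 or any Hom library; adjusted p up to 0.117). Socs3, an inhibitor of cytokine signalling, had a change of -0.70 (SE 0.15, adjusted p 0.0241), and -0.56 without WT 5 (adjusted p 0.0429). Its TPM was 32.91, 33.76, 35.46, 45.97 and 60.71 in WT 1 to 5, and at most 28.67 in Hom, so the groups did not overlap, as for 1.96% of genes lower in this way. Its call was lost without WT 4, Hom 1, Hom 3 or Hom 4 (adjusted p up to 0.0809). None of the tested genes of these 4 lists was called in Het against WT by limma. There 2 of 22 effectors and 1 of 27 upstream regulators were lower at an unadjusted p under 0.05, against 2.88% of all tested genes.

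Upstream regulators and heat shock genes with the largest Hom changes were Srf (-0.68, SE 0.32, limma adjusted p 0.34), Rps6ka1, a kinase downstream of ERK (0.55, SE 0.23, adjusted p 0.27), Hspa1b (0.86, SE 0.73) and Hspa1a (0.34, SE 0.74). Without WT 5 the changes were -0.24 for Srf (limma adjusted p 0.146), 0.40 for Rps6ka1 (adjusted p 0.461), 1.42 for Hspa1b (adjusted p 0.375) and 1.04 for Hspa1a (adjusted p 0.493), and without Hom 1 that of Hspa1a was -0.26. Between batches, Jund (0.54), Nfil3 (0.48), Zfp36 (1.25), Per1 (0.67), Crtc2 (0.33), Camk2b (0.32) and Mapk10 (0.17) were called higher in batch 2, and Homer1 (-0.20), Hsp90aa1 (-0.42) and Dnaja1 (-0.24) lower. Calls between batches covered 13.5% of all tested genes. Zfp36 encodes a protein that hastens decay of unstable mRNAs, and its batch 2 libraries had 16.74 to 46.27 TPM against 5.41 to 18.07 TPM in batch 1. Without WT 5 the batch calls of Crtc2 (limma adjusted p 0.0728) and Mapk10 (adjusted p 0.063) were lost. Leaving out any 1 of the 14 libraries kept the batch calls of Jund, Zfp36 and Hsp90aa1, while that of Per1 was lost without any of WT 1 to 4, Het 1, Het 3, Hom 1 or Hom 3 (adjusted p up to 0.0709), and those of Nfil3, Homer1, Camk2b and Dnaja1 were lost without at least 1 library each (adjusted p up to 0.0729).

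**Figure D5:**
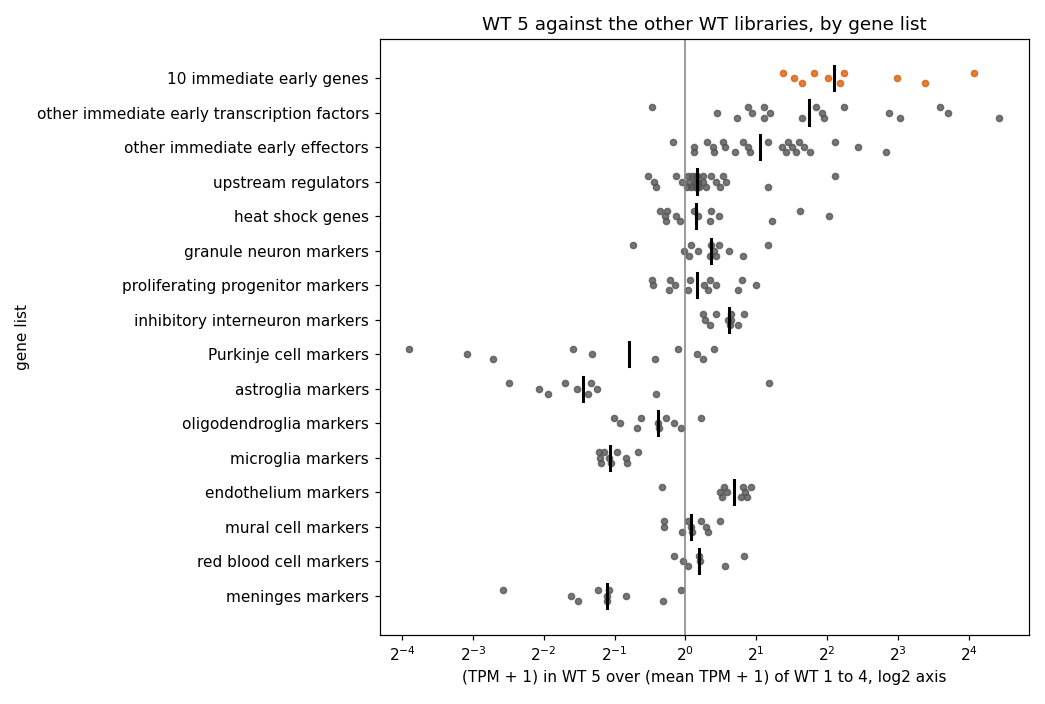
Ratio of TPM + 1 in WT 5 to the mean TPM + 1 of WT 1 to 4 (horizontal axis, log2 scale) for every gene of each list, with a bar at the list's median. The medians of the immediate early lists lie to the right of 1 (4.3, 3.36 and 2.07), those of heat shock and proliferating progenitor genes near 1 (1.11 and 1.12), and those of astroglia, microglia and meninges markers to the left (0.366, 0.478 and 0.464).

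Marker lists of other cells also differed between WT 5 and the other WT libraries. Summed TPM in WT 5, against the range of WT 1 to 4, was 253 against 513 to 590 for 10 microglia markers and 472 against 921 to 1917 for 10 astroglia markers. For meninges markers it was 122 against 278 to 426, and for oligodendroglia markers 805 against 1088 to 1498. Endothelium markers were inside the WT range (151 TPM, range 37.7 to 258). The sum of the granule neuron markers was highest in WT 5 (5617 TPM, other WT 3906 to 5427). Of these 13 markers, 6 were above every other WT library in WT 5, and 5 were at their highest of all libraries there. The sum of the 10 inhibitory interneuron markers was also highest there, with 381 TPM against 204 to 315 TPM in WT 1 to 4. Each of the 10 was above its mean in those libraries, 7 were above every other WT library, and 3 were at their highest of all libraries in WT 5. Purkinje cell markers summed to 105 TPM, against 111 to 249 TPM. WT 5 was below every mutant library for microglia (338 to 596 TPM) and meninges markers (178 to 472 TPM). Its sums lay inside the range of the mutant libraries for astroglia (376 to 1210 TPM), oligodendroglia (635 to 1699 TPM) and Purkinje cell markers (92 to 149 TPM). The part of cell composition in the members' levels was not tested.

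The genes whose log2 level over the 14 libraries most resembled the mean of the scaled members, among those with a mean of at least 5 TPM, were Npas4 (Pearson r 0.96, Spearman rho 0.79), Ddit3 (r 0.92), Rem2 (r 0.92), Ppp1r15a (r 0.91) and Sertad3 (r 0.91). Without WT 5 these fell to 0.81, 0.59, 0.57, 0.62 and 0.58, so much of the likeness rested on that library. Npas4 passed the minimum mean level only through WT 5, since its mean over the other 13 libraries was 1.32 TPM. Ddit3 and Ppp1r15a, both induced in the integrated stress response, had 86.56 and 55.75 TPM in WT 5 and at most 37.7 and 24.42 TPM in the others. For Fos alone the nearest genes were Dusp1, a phosphatase that switches off MAP kinases (r 0.90, rho 0.92, r 0.81 without WT 5), Npas4 (r 0.87, rho 0.75) and Pop4 (r 0.85, rho 0.87, r 0.83 without WT 5). All values come from the same 14 libraries and are descriptions. Leaving out WT 5 and the next most distant library gave r of 0.81 for Npas4 and 0.51 to 0.61 for the other 4 against the members, and 0.76 to 0.85 for the 3 genes against Fos.

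The members also share a compact structure. Their median span was 5938 bp, from 1522 bp (Ier2) to 47744 bp (Atf3), against a median of 24892 bp for the 13945 protein-coding genes tested. Of the 10, 8 spanned less than 10 kb, against 24.1% of those genes. The median number of exons in the longest transcript was 3, against 9.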

How the data were processed

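Single-end total RNA reads were mapped by the authors to the mm10 Ensembl mouse transcriptome with Bowtie 1.0.0 and RSEM 1.2.15, and gene-level TPM values were deposited in 1 table, summing to between 999999.14 and 1000000.79 per library. The authors' batch correction (ComBat) was not applied here. Columns headed as controls were taken as WT libraries of the same number. GENCODE gave 40254 of 41381 IDs a symbol.

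Values were analysed as log2(TPM + 1), a scale that understates changes at low TPM, for genes that reached a TPM of 1 in 4 or more libraries. Linear models used limma 3.58.1 in R 4.3.3 (eBayes with trend) with genotype and batch as terms and all 14 libraries, with two-sided p-values and Benjamini-Hochberg adjustment over the 17325 genes tested. A gene was called at an adjusted p under 0.05. Nothing says whether replicates are separate animals, so p-values measure the spread between these libraries. On simulated data the fit was checked before use. Exact Kruskal-Wallis tests used SciPy 1.17.1 and Python 3.11.15.

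Members and lists were chosen with earlier results of these data known. Other genes named are Chd7, list genes called in Hom, Het or batch contrasts (or, with none called in Hom, the 2 with the largest Hom change at a mean TPM of at least 5), and the 5 and 3 genes most like the members and Fos.

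Alternatives changed the pseudocount (0.1, 0.5), the filter, the scaling, the batch term, the libraries compared, array weights or a replicate block, or left out each library.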

Additional observations from a re-analysis of the deposited data

Results flagged for a closer look

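In a group of 4 or 5 libraries, a library whose gap to the next was large beside the range of its group was singled out (Dixon's ratio over its 95% critical value). With normally distributed values, chance does this in about 1 in 20 groups. Here TPM was used without a log scale, so that rate may not hold. In all, 33 groups were checked, and the 10 flags on WT 5 come from 1 library. WT 5 was singled out as the highest WT library for 9 members, at 666.36 TPM for Fos, 227.34 for Fosb, 459.61 for Jun, 65.51 for Junb, 37.05 for Egr2, 185.96 for Ier2, 96.78 for Atf3, 123.83 for Klf6 and 77.29 for Nr4a1. It was likewise singled out for the summed level of the 10 members, at 2226.03 TPM. Egr1 in WT 5 (286.3 TPM) did not pass.

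The remaining 3 values passed in the mutant groups. Nr4a1 was at 23.69 TPM in Het 5 and at 26.48 TPM in Hom 4, both libraries of batch 2. Egr2 was at 6.96 TPM in Hom 1, where the other Hom libraries lay between 4.95 and 5.17 TPM.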

How the results depend on the processing

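TPM keeps no depth, so no detection limit can be given, and with 2 WT libraries in batch 2 that differ as widely as WT 4 and WT 5 the size of any genotype change of the members is poorly fixed. In Het against WT and in Hom against Het no member was called under any alternative run. In Hom against WT, 3 members were called with array weights (Fos, Fosb and Junb), against 3.43% of all genes. In batch 2 against batch 1 it was 1 member (Junb), against 15.5%. Leaving out each library in turn gave 0 to 5 members called in Hom against WT (5 without WT 4, against 2.23% of all genes). In the batch contrast it gave 0 to 2 (2 without WT 4, against 8.01%). The causes were not tested. The exact Kruskal-Wallis tests stayed on their side of 0.01 without removal of the batch.

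Whether replicate numbers pair the libraries was left unsettled. With the batch term and group means removed, 3 of 13 same-numbered pairs had a correlation over 0.1 (range -0.23 to 0.26). Among replicates 1 and 2, pairs of different genotype had -0.10 to 0.25 with the same number and -0.24 to -0.098 with different numbers. Under a replicate block the batch term rests on replicate 3 alone, where Hom 3 was in batch 2 and WT 3 and Het 3 in batch 1. The directions it gives between batches are therefore poorly fixed. With the replicate block the median member change between batches was -0.58, and the batch change turned below 0 for Fos (-1.09), Fosb (-0.55), Jun (-0.23), Junb (-0.0115), Egr1 (-1.66), Egr2 (-0.51), Ier2 (-0.60), Atf3 (-0.79), Klf6 (-0.68) and Nr4a1 (-0.14). The replicate block also turned Nr4a1 in Hom against WT (0.36), and in Hom against Het it turned Jun (0.0472), Egr1 (0.0766), Egr2 (0.0229), Ier2 (0.0133), Atf3 (0.48) and Klf6 (0.40). Genes called under the replicate block were 259 in Hom against WT, 0 in Het against WT, 18 in Hom against Het and 4 between batches.

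In batch 2 alone without WT 5, added after the data were seen, the median member change was 0.0839 in Hom and 0.37 in Het. The Hom change was then above 0 for Jun (0.10), Junb (0.0441), Egr1 (0.38), Egr2 (0.068), Atf3 (0.69), Klf6 (0.30) and Nr4a1 (1.39). The Het change was above 0 for Fos (0.38), Fosb (0.17), Jun (0.25), Junb (0.45), Egr1 (0.80), Egr2 (0.28), Ier2 (0.22), Atf3 (1.17), Klf6 (0.36) and Nr4a1 (1.15). No gene was called there in any of the 3 contrasts (0 in each).

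Leaving out single libraries, the change ran from -0.88 to 0.30 for Nr4a1 in Hom, from -1.32 to 0.078 for Atf3 and -1.03 to 0.0627 for Nr4a1 in Het, each upper end being without WT 5. In Hom against Het it ran from -0.56 to 0.0632 for Atf3, -0.20 to 0.10 for Klf6 and -0.14 to 0.51 for Nr4a1. Between batches it ran from -0.36 to 0.55 for Fos, -0.59 to 0.73 for Fosb, -0.27 to 0.26 for Jun, -0.27 to 0.51 for Egr1, -0.40 to 0.29 for Egr2, -0.21 to 0.29 for Ier2 and -0.0272 to 0.62 for Klf6, each low end being without WT 5 and each high end without WT 4. The median difference of the genotype change between batches came to 1.08 in Hom and 1.36 in Het without WT 5. Array weights turned the batch change of Jun (-0.12) and Egr2 (-0.12), and a pseudocount of 0.1 (-0.0083) and quantile normalization (-0.0087) turned that of Egr2.

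Over all genes, 465 were called in Hom against WT, 1 in Het against WT and 74 in Hom against Het. These counts were 162, 3 and 11 in batch 1 alone, 4, 2 and 2 in batch 2 alone, and 259, 0 and 42 with only the genotypes compared. Het calls numbered 13 with array weights, 3 with a pseudocount of 0.1 or 0.5, 0 with either other filter and with quantile normalization, and 2 with no batch term. Hom against Het had 118 with array weights and 41 with no batch term. Leaving out single libraries gave 287 to 489, 0 to 13 and 28 to 74, and 1388 to 2617 between batches. With Het 3 counted in batch 2, 715 genes were called between batches, against 2338.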

Other observations

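The stress-inducible chaperone genes, Hspa1a and Hspa1b, followed the immediate early genes only in part, being higher in Hom 1 and Het 1 than in WT 5. On TPM + 1, 3 of the 14 heat shock genes were over 2 times the mean of WT 1 to 4 in WT 5, the highest at 4.06 times. Hspa1a was highest in Hom 1 (22.29 TPM) and Het 1 (19.24 TPM), with 15.64 TPM in WT 5 and between 0.79 and 5.54 TPM in the other libraries. Hspa1b had 35.8 TPM in Hom 1 and 29.67 TPM in Het 1, against 10.42 TPM in WT 5. In these same libraries Fos was at 35.63 TPM (Hom 1) and 40.62 TPM (Het 1), the lowest values among the 14. The other 12 heat shock genes summed to 6925 TPM in Hom 1, 7121 TPM in Het 1 and 6745 TPM in WT 5, within a range of 6305 to 8214 TPM over all libraries.

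Klf2 and Klf4, Krüppel-like factors that endothelial cells also express, were high in further libraries beside WT 5. Klf2 had 46.17 TPM in WT 5, 22.21 TPM in Hom 4, 19.27 TPM in Het 5 and 10.31 TPM in Het 2, and at most 7.16 TPM elsewhere. Klf4 had 32.96 TPM in WT 5, 10.35 TPM in Hom 4, 7.42 TPM in Het 2 and 7.27 TPM in Het 5. The endothelium markers were higher in Het 2 (554 TPM) than in WT 5 (151 TPM), Hom 4 (357 TPM) and Het 5 (292 TPM). These genes were named after their values were seen.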
